A study of Drosophila melanogaster with 4 samples.

Results

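Both ribosomal RNAs of the fly mitochondrial genome, mt:lrRNA of the large and mt:srRNA of the small mitoribosomal subunit, left reads in the monosome libraries of control and DmAngel KO larvae. These 2 entries were chosen by name among 35 mtDNA-encoded entries, the others being 11 mt-mRNAs and 22 mt-tRNAs, and among 34917 entries in all. Mitoribosome profiling sequences the RNA pieces that survive nuclease digestion inside the ribosome, and the study used it to ask how translating mitoribosomes were distributed when the phosphatase DmANGEL, which acts on mitochondrial RNA ends, was missing. Crude mitochondria from whole third-instar larvae (Angel+/+ or Angel-/-, 4 days after egg laying) were lysed, digested with 200 U of RNase T1 for 30 min and run on a 10 to 30% sucrose gradient, and RNA of 15 to 90 nt from the pooled monosome fractions was sequenced. Each genotype had 2 libraries, called replicates 1 and 2. The control was the white Dahomey strain (wDah), and the knockout was the KO-1 line, a single CRISPR/Cas9 line whose lesion was induced in the germline and which was backcrossed for 6 generations into the w;; background. The mitochondria came from all tissues of the larva. The series' own design text speaks of technical replicates and the study's figure legend of independent experiments, so the p-values measure the spread between these libraries, which may be technical.

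The libraries held between 1789947 and 8227127 reads. The mt-mRNAs took 66.6% and 73.2% of all reads in the controls but 92.2% and 92.6% in the knockouts, so the genotypes differed in composition as well as in depth. The angel gene itself had 2 and 0 reads in the controls against 1 and 1 in the knockouts, too few to check the genotype. The libraries of a genotype were not copies of each other, since their counts over the 35 mtDNA-encoded entries differed beyond sampling noise (with 34 degrees of freedom, chi-square was 28801 for the controls and 122666 for the knockouts).

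A mitochondrial monosome joins a large and a small subunit, and each subunit is built around its own rRNA, so an intact monosome carries a copy of each. The large-subunit rRNA forms the peptidyl transferase centre and the small-subunit rRNA forms the decoding site, where the mRNA is read. RNase T1 cuts after unpaired guanosines, so rRNA within the ribosome can be nicked at exposed loops, and the released pieces enter a library of short RNAs together with the mRNA footprints. The number of such reads depends on where an rRNA is nicked and on which pieces fit the size window, as well as on how much of it is present. Before counting, the authors also subtracted reads from fly non-coding RNA such as nuclear rRNA and tRNA. Whether mitochondrial rRNA or tRNA sequences were in that set is not given in the sources used here. The rRNA and mt-tRNA values below are therefore the reads that remained.

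In the BDGP6.54 annotation both genes lie on the minus strand of the mitochondrial genome. The gene of mt:lrRNA (FBgn0013686) spans 12735 to 14058, 1324 nt, and that of mt:srRNA (FBgn0013688) spans 14131 to 14916, 786 nt. Between them lies mt:tRNA-Val (14059 to 14130), and past the far end of mt:lrRNA lie mt:tRNA-Leu with anticodon TAG (12670 to 12734) and mt:ND1 (11721 to 12659), which encodes a subunit of complex I. In this order mt:srRNA, mt:tRNA-Val, mt:lrRNA, mt:tRNA-Leu and mt:ND1 follow each other on the minus-strand precursor. Both ends of mt:lrRNA therefore abut a tRNA, and tRNA excision by RNase P and RNase Z is the usual way in which such ends are made. The mature mt:lrRNA is polyadenylated in flies, and a 30-nt poly(A) stretch was added to its entry before alignment. The deposited tables hold no coordinates or read positions, so the place of the fragments within each rRNA was not analysed here.

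Reads on mt:srRNA numbered 7541 and 4115 in the controls against 7437 and 13574 in the knockouts (replicates 1 and 2). Reads on mt:lrRNA numbered 456 and 220 in the controls against 682 and 1339 in the knockouts. Fragments of the small-subunit rRNA thus outnumbered those of the large-subunit rRNA in every library, although the large-subunit gene is the longer. Both together were 0.282% and 0.325% of mtDNA-encoded reads in the controls against 0.107% and 0.193% in the knockouts.

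Per length, mt:lrRNA was the least covered of the 35 mtDNA-encoded entries in all 4 libraries. Its read density was 122 and 125 reads per kb per 1000000 mtDNA-encoded reads in the controls against 67.7 and 131 in the knockouts. The median mt-mRNA density was 353 times as high in both controls, and 496 and 248 times as high in DmAngel KO replicates 1 and 2. No mt-tRNA had a lower density than mt:lrRNA in any library. The entry next above it was always a tRNA, a stable RNA that is bound in the ribosome and whose whole length fits the size window.

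The density of mt:srRNA was 3384 and 3928 reads per kb per 1000000 mtDNA-encoded reads in the controls against 1244 and 2240 in the knockouts. It ranked between place 20 and place 28 of 35, in the range of the mt-tRNAs, of which 10 and 14 in the controls against 6 and 9 in the knockouts, of 22, had a lower density. The mt-mRNA of lowest density was mt:ND2 in every library, another complex I transcript, and it was still between 3.07 and 8.05 times as dense as mt:srRNA. The density of mt:srRNA was 27.9 and 31.5 times that of mt:lrRNA in control and 18.4 and 17.1 times in DmAngel KO. Neither rRNA therefore reached the density of any mt-mRNA, and both controls had a larger gap between the rRNAs than both knockouts.

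**Figure D1:**
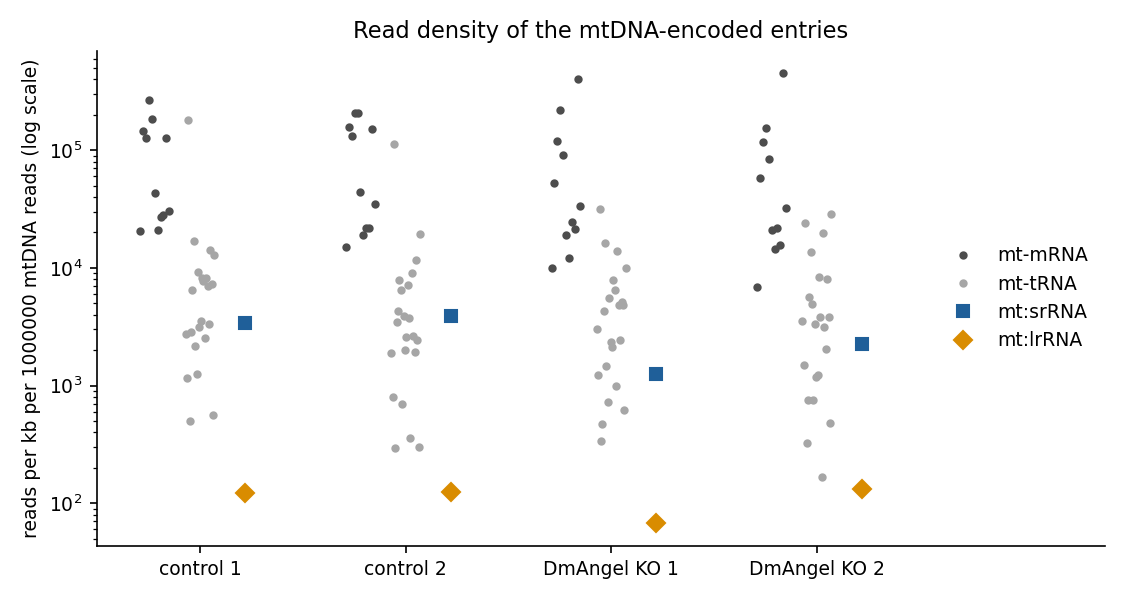
Read density of each mtDNA-encoded entry in the 4 libraries, in reads per kb of annotated gene length per 1000000 mtDNA-encoded reads, on a log scale. Dark dots are the 11 mt-mRNAs, light dots the 22 mt-tRNAs, squares mt:srRNA and diamonds mt:lrRNA, which is the lowest point in every library (67.7 to 131), while mt:srRNA lies among the mt-tRNAs (1244 to 3928).

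For the comparison between genotypes the rRNA reads were first set against the mRNA footprints of the same monosomes. There were 2.72 and 3.14 mt:srRNA reads per 1000 mt-mRNA reads in the controls against 0.987 and 1.78 in the knockouts, a mean of 2.93 ± 0.295 (SD, n = 2) against 1.38 ± 0.562 (SD, n = 2). Both knockout libraries lay below both controls, and the knockout mean was 0.472 times the control mean. With edgeR's quasi-likelihood test, fitted over 5293 entries with library sizes taken from the mt-mRNA reads, mt:srRNA fell by 1.08 on the log2 scale (standard error 0.44, Benjamini-Hochberg adjusted p = 0.0201). On this scale 85.4% of all tested entries were called lower and 86.0% were called in either direction, since reads outside mtDNA also made up less of the knockout libraries, and the median log2 fold change over all tested entries was -2.12. A call of lower is thus the common state of an entry here, and mt:srRNA was lower by less than the median entry. When the 35 mtDNA-encoded entries alone were fitted, 22.9% of them were called, and mt:srRNA had an adjusted p of 0.0575 (edgeR). An exact permutation test over the 4 libraries gave a two-sided p of 0.333, the smallest that 2 libraries against 2 can give.

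The mt-mRNA total was itself uneven. The mt:cytb transcript, which encodes cytochrome b of complex III, took 14.7% and 17.5% of the mt-mRNA reads in the controls against 45.9% and 51.8% in the knockouts. Without mt:cytb in the total, there were 3.19 and 3.81 mt:srRNA reads per 1000 mt-mRNA reads in the controls against 1.82 and 3.69 in the knockouts. The genotypes then overlapped, because DmAngel KO replicate 2 lay above control replicate 1, and the log2 fold change was -0.34 with a standard error of 0.45 (adjusted p = 0.5, edgeR). The call of mt:srRNA was also lost when any 1 of the 4 libraries was left out, with log2 fold changes from -1.57 to -0.72.

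For mt:lrRNA the controls lay close together, with 0.165 and 0.168 reads per 1000 mt-mRNA reads, and the knockouts far apart, with 0.0905 and 0.176. The control mean was 0.166 ± 0.00230 and the knockout mean 0.133 ± 0.0602 (SD, n = 2 each). One knockout library was below both controls and the other above both, so the genotypes overlapped (exact permutation test, two-sided p = 1). The log2 fold change was -0.32 with a standard error of 0.51 (adjusted p = 0.541, edgeR), and it was 0.08 without DmAngel KO replicate 1. No difference of mt:lrRNA per mRNA footprint was thus detectable between the genotypes. In the knockout pair, mt:lrRNA in replicate 2 was 1.94 times and mt:srRNA 1.81 times the value in replicate 1, whereas the same ratios in control were 1.02 and 1.15. Both rRNAs were therefore higher in replicate 2 of the knockout, by similar factors.

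The mt-tRNAs gave a second yardstick, since tRNAs are bound in the ribosome like the rRNAs but can enter the library uncut. Relative to 1000 mt-tRNA reads there were 130 and 221 mt:srRNA reads in the controls against 115 and 186 in the knockouts, means of 175 ± 64.3 and 151 ± 50.2 (SD, n = 2 each). The ranges overlapped (exact permutation test, two-sided p = 0.667), and the log2 fold change was -0.22 with a standard error of 0.53 (adjusted p = 0.745, edgeR). On this scale 39.2% of all tested entries were called in either direction, with a median log2 fold change of -1.13. In both genotypes the mt:srRNA value was higher in replicate 2 than in replicate 1.

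Relative to 1000 mt-tRNA reads, mt:lrRNA had 7.85 and 11.8 reads in the controls against 10.6 and 18.4 in the knockouts, means of 9.83 ± 2.80 and 14.5 ± 5.52 (SD, n = 2 each). Here too the genotypes overlapped (two-sided exact permutation p = 0.667), with a log2 fold change of 0.56 with a standard error of 0.52 (adjusted p = 0.378, edgeR). Neither rRNA passed the test per mt-tRNA read.

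This total also had a dominant member, mt:tRNA-Met, the tRNA that starts mitochondrial translation and also serves elongation, with 60.5% and 55.3% of mt-tRNA reads in the controls against 25.7% and 17.7% in the knockouts. Without it, mt:srRNA had 329 and 494 reads per 1000 mt-tRNA reads in the controls against 155 and 226 in the knockouts, and the knockouts lay below the controls (log2 fold change -1.11, adjusted p = 0.0565, edgeR). Without it, mt:lrRNA had 19.9 and 26.4 reads in the controls against 14.2 and 22.3 in the knockouts, and its log2 fold change turned to -0.34. The sign for mt:lrRNA therefore depended on a single tRNA in the total.

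**Figure D2:**
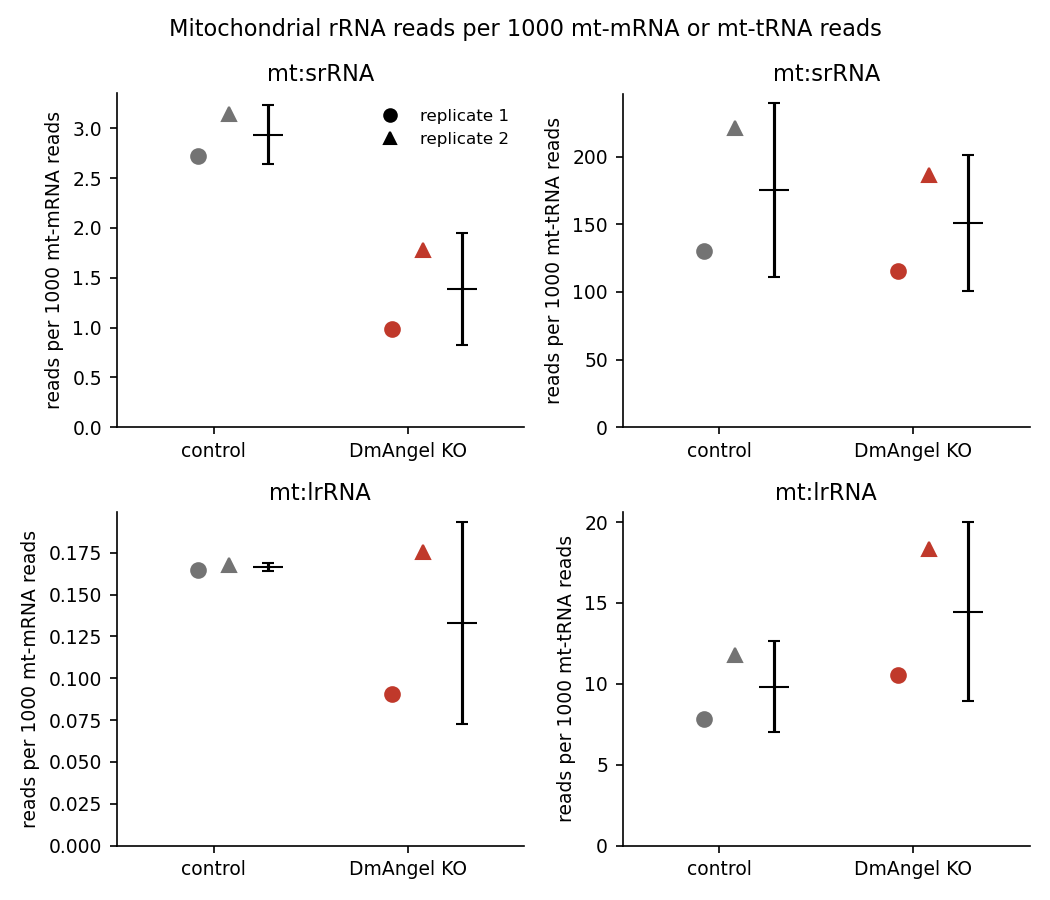
Reads of mt:srRNA (top) and mt:lrRNA (bottom) per 1000 mt-mRNA reads (left) and per 1000 mt-tRNA reads (right), with axes that start at 0. Circles are replicate 1 and triangles replicate 2 of control (grey) and DmAngel KO (red), and the black lines give the mean and SD of 2 libraries. The genotypes separate only for mt:srRNA per mt-mRNA read (2.72 and 3.14 against 0.987 and 1.78), which they no longer do when mt:cytb is left out of the total and which turns to higher in DmAngel KO when reads outside mtDNA set the scale.

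The ratio of the rRNAs to each other does not depend on either total. There were 0.0605 and 0.0535 mt:lrRNA reads for each mt:srRNA read in the controls against 0.0917 and 0.0986 in the knockouts. The mean went from 0.0570 ± 0.00495 (SD, n = 2) to 0.0952 ± 0.00491 (SD, n = 2) with the knockout, a ratio of 1.67. Put the other way, mt:srRNA reads outnumbered mt:lrRNA reads 17.6 to 1 in control and 10.5 to 1 in DmAngel KO. Both knockout libraries lay above both controls, by several times the difference between replicates.

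As a share of the reads on both rRNAs, mt:lrRNA made up 5.70% (95% Wilson interval 5.22 to 6.23) and 5.08% (4.46 to 5.77) in control. In DmAngel KO the share was 8.40% (7.82 to 9.02) and 8.98% (8.53 to 9.45). The intervals, which cover counting error only, overlapped within each genotype and not between genotypes. Within a genotype no difference between replicates beyond sampling noise was detected on this pair of entries (chi-square 2.13, p = 0.144 in control and 2.20, p = 0.138 in DmAngel KO, on the reads of the libraries compared). This was so although the same libraries differed in depth, and although the knockout replicates differed 1.81-fold and 1.94-fold in rRNA reads per mt-mRNA read. Such a result does not exclude a spread beyond counting error.

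The difference in the ratio was not past the threshold in a test over libraries. With mt:srRNA as the library size, edgeR gave mt:lrRNA a log2 fold change of 0.74 with a standard error of 0.85 (adjusted p = 0.639), where 4.25% of all tested entries were called in either direction and the median over all tested entries was -0.94. This fit borrows its estimate of the spread from all 5293 entries, most of them outside mtDNA. Fitted on the mtDNA-encoded entries alone, the same log2 fold change had a standard error of 0.27 and an adjusted p of 0.259 (edgeR). The median log2 fold change over these 35 entries was 0.90. Relative to mt:srRNA, mt:lrRNA thus rose by less than the median mtDNA-encoded entry, and the shift was not particular to the rRNA pair. The exact permutation test gave a two-sided p of 0.333, the smallest possible. The fold change stayed between 0.65 and 0.83 on the log2 scale when each library was left out.

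**Figure D3:**
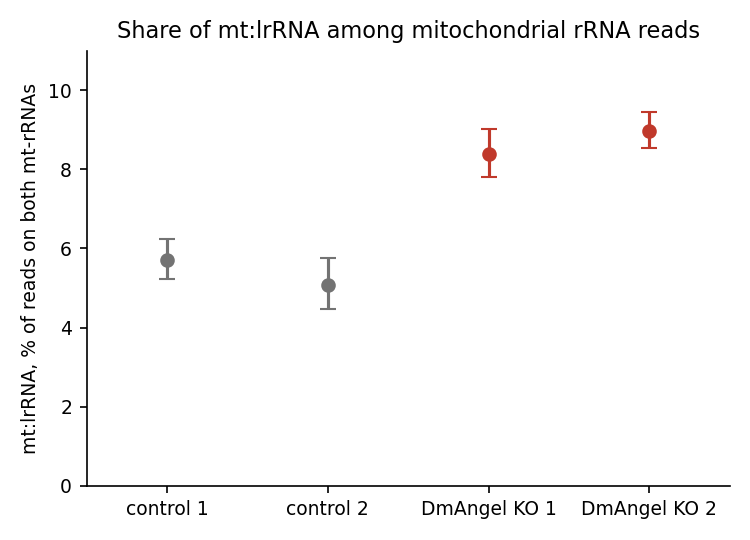
Share of mt:lrRNA among the reads on both mitochondrial rRNAs in each library, in percent, with 95% Wilson intervals that cover counting error only. The controls (grey) are at 5.70% and 5.08% and the DmAngel KO libraries (red) at 8.40% and 8.98%, a difference that did not pass edgeR's test over the libraries (adjusted p = 0.639).

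Scaled to RNA from outside the mitochondrial genome, both rRNAs were higher in DmAngel KO, as were their mtDNA-encoded neighbours described further on, which had larger log2 fold changes than either rRNA. Per 1000000 reads outside mtDNA, mt:srRNA had 5692 and 9003 reads in the controls against 13124 and 26203 in the knockouts. For mt:lrRNA the values were 344 and 481 in the controls against 1204 and 2585 in the knockouts. Both knockout libraries were above both controls for each rRNA (exact permutation test, two-sided p = 0.333 each, the smallest possible). In edgeR, with TMM factors over the entries outside mtDNA, the log2 fold change was 1.04 for mt:srRNA (adjusted p = 0.236) and 1.82 for mt:lrRNA (adjusted p = 0.052), and 5.91% of all tested entries were called in either direction. Neither rRNA passed the test.

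Reads on nuclear rRNA, 136 entries that hold what the removal step left, gave the same direction. This scale was chosen after seeing the data. For each 1000 of these reads there were 278 and 297 mt:srRNA reads in the controls against 444 and 642 in the knockouts. For mt:lrRNA the values were 16.8 and 15.9 in the controls against 40.7 and 63.3 in the knockouts. The adjusted p was 0.387 for mt:srRNA and 0.0918 for mt:lrRNA (edgeR). Whether the DmAngel KO monosomes held more mitoribosomes or fewer other particles cannot be told apart from such shares. Across the 8 library sizes compared, the log2 fold change of mt:lrRNA was higher than that of mt:srRNA each time, which follows from their ratio within each library.

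**Figure D4:**
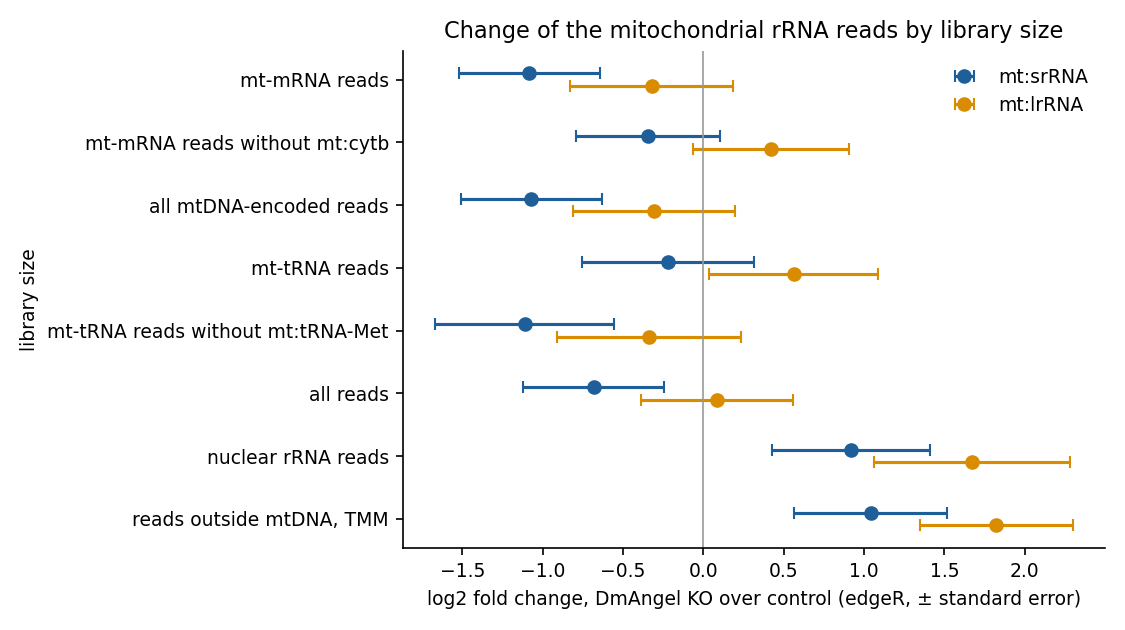
Log2 fold change (DmAngel KO over control, edgeR, bars of 1 standard error) of mt:srRNA and mt:lrRNA under 8 choices of the library size, named on the vertical axis. For mt:srRNA it runs from -1.11 to 1.04 and for mt:lrRNA from -0.34 to 1.82, so that the sign depends on the reads that set the scale, while mt:lrRNA lies to the right of mt:srRNA on every line.

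The neighbours on the minus-strand precursor were examined in the same way. The tRNA between the rRNAs, mt:tRNA-Val, had 2612 and 1846 reads in the controls against 5490 and 16013 in the knockouts. Per 1000 mt-mRNA reads these were 0.943 and 1.41 in the controls against 0.728 and 2.10 in the knockouts. The knockout libraries thus lay on either side of the controls, as they did for mt:lrRNA. The log2 fold change was 0.27 with a standard error of 0.46 (adjusted p = 0.579, edgeR). DmAngel KO replicate 2, in which both rRNAs were higher than in replicate 1, was also the library with the most mt:tRNA-Val.

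On the other side of mt:lrRNA, mt:tRNA-Leu had 103 and 26 reads in the controls against 308 and 240 in the knockouts, the fewest of these genes in every library. Per 1000 mt-mRNA reads its log2 fold change was 0.32 with a standard error of 0.54 (adjusted p = 0.567, edgeR). Per 1000 mt-mRNA reads, the mt:ND1 transcript had 29.1 and 33.5 in the controls against 31.8 and 30.9 in the knockouts, with a log2 fold change of 0.00 with a standard error of 0.35 (adjusted p = 0.997, edgeR). Of the 3 neighbours 0 were called on this scale in edgeR, where 86.0% of all tested entries were called, and 0 had an unadjusted p under 0.05. In DESeq2 0 of the 3 were called, where 13 of 5293 entries were called higher and 3045 lower. With library sizes from entries outside mtDNA, where 5.91% were called, mt:ND1 (log2 fold change 2.08, adjusted p = 0.0194, edgeR) and mt:tRNA-Leu (2.45, adjusted p = 0.00548) were called higher, and mt:tRNA-Val (adjusted p = 0.0505) was not. With library sizes from nuclear rRNA, chosen after seeing the data, all 3 were called higher, at 2.05, 2.37 and 2.24. On that scale 89 of all 5293 tested entries were called higher and 180 lower. The median log2 fold change of all tested entries was -0.009 with entries outside mtDNA and -0.097 with nuclear rRNA, against -2.12 per mt-mRNA read. Both scales thus moved entries upward in general, and mt:ND1 went from 0.00 to 2.08 and 2.05. The share of all mtDNA-encoded entries called on them is not given here, so these calls cannot be read as particular to the neighbours. Per mt-tRNA read, mt:tRNA-Leu rose by 1.33 on the log2 scale (standard error 0.53, adjusted p = 0.0363, edgeR), and the change was 0.43 and no longer called without mt:tRNA-Met in the total. The call of mt:tRNA-Leu ended as well with no filter on low counts (1.33, adjusted p = 0.135, edgeR). That call was also lost without control replicate 1 (1.53), without control replicate 2 (1.18) and without DmAngel KO replicate 1 (1.04).

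Set against the rRNAs directly, mt:tRNA-Val had 0.346 and 0.449 reads for each mt:srRNA read in the controls against 0.738 and 1.18 in the knockouts, and the genotypes did not overlap. Against mt:lrRNA the values were 5.73 and 8.39 in the controls against 8.05 and 12.0 in the knockouts, and they overlapped. The complex I transcript mt:ND1 had 10.7 reads for each mt:srRNA read in both controls and 32.2 and 17.3 in DmAngel KO. Relative to mt:srRNA, edgeR gave log2 fold changes of 1.27 for mt:tRNA-Val (adjusted p = 0.338) and 1.21 for mt:ND1 (adjusted p = 0.231). The RNAs downstream of mt:srRNA on this strand were thus each higher relative to it in both knockout libraries, without a call in the test over libraries. Over the 35 mtDNA-encoded entries fitted alone, the median log2 fold change relative to mt:srRNA was 0.90. A rise relative to mt:srRNA was therefore common among mtDNA-encoded entries and not particular to those downstream of it. With the replicate number as a block, which the labels do not say pairs the libraries, all 3 neighbours were called higher relative to mt:srRNA. The values were 1.24 for mt:tRNA-Val (adjusted p = 0.0151, edgeR), 1.55 for mt:tRNA-Leu (adjusted p = 0.0123) and 1.15 for mt:ND1 (adjusted p = 0.0293). In the same fit mt:lrRNA was not called (adjusted p = 0.113, edgeR). Of all 5293 tested entries, 70 were called higher and 1213 lower with this block.

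Among the other 33 mtDNA-encoded entries, 2 were called higher and 8 lower per mt-mRNA read (edgeR, adjusted p under 0.05), with a median log2 fold change of -0.29. The value of mt:lrRNA (-0.32) lay near that median and the value of mt:srRNA (-1.08) below it. Per mt-tRNA read, 6 of the 33 were called higher and 2 lower, with a median of 0.71, and mt:srRNA (-0.22) was again below the median and mt:lrRNA (0.56) near it.

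Likeness between profiles was measured as the root mean square difference of centred log2 reads per mt-mRNA read over the 4 libraries. The profile of mt:lrRNA was closest to that of mt:ND5, which encodes a complex I subunit, at a difference of 0.277, followed by mt:tRNA-Tyr (0.328) and mt:tRNA-Pro (0.348). The profile of mt:srRNA was closest to mt:tRNA-Pro (0.206), then to mt:ND3, a complex I transcript (0.263), and to mt:CoI, which encodes a subunit of cytochrome c oxidase (0.303). The rRNAs were not each other's closest entries, at a difference of 0.378. Only 4 libraries were compared, and all entries of a library share its depth and its mt-mRNA total, so these distances are a description only.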

How the data were processed

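The authors deposited raw counts, the number of reads on each of 34917 transcript entries in each of 4 libraries, without normalization. Read pairs had been merged (BBMerge) and linkers trimmed (BBDuk), reads from fly non-coding RNA had been subtracted, and the rest had been aligned with Bowtie2 to the sense strand of edited transcripts. The processing notes name bedtools and BDGP6, and how alignments were counted is not given in the sources used here. Read totals ranged from 1789947 to 8227127 per library.

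Here, genotype and replicate came from the sample labels, and gene coordinates from BDGP6.54. Reads of each rRNA were divided by the mt-mRNA, mt-tRNA or mt:srRNA reads of the same library. Each of these sums served as the library size, without further factors, in edgeR 4.0.16 (R 4.3.3, glmQLFit and glmQLFTest) over the 5293 entries that filterByExpr kept, both rRNAs among them. P-values were adjusted by Benjamini-Hochberg over all of these and called under 0.05, and standard errors follow from the F statistic of the test. Single values were compared by exact permutation over the 4 libraries, and shares of single libraries have 95% Wilson intervals, which cover counting error only. DESeq2 1.42.0 was an alternative test, besides other filters, library sizes and left-out libraries. The genes named were both rRNAs, their minus-strand neighbours, the most abundant mt-mRNA and mt-tRNA, and the 3 entries most like each rRNA, besides the mt-mRNA of lowest density, which was named after its values were seen. The members and lists were chosen with earlier results of these data known.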

Additional observations from a re-analysis of the deposited data

How the results depend on the processing

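The log2 fold changes below are DmAngel KO over control. Per mt-mRNA read, mt:lrRNA (-0.32) became 0.42 without mt:cytb in the library size, 0.083 with all entries, 1.85 with TMM factors, 1.83 with DESeq2's size factors, 1.82 with entries outside mtDNA and 1.67 with nuclear rRNA (the last added after seeing the data), and -0.88 to 0.079 when 1 library was left out. In the same order, mt:srRNA (-1.08) became -0.34, -0.68, 1.07, 1.05, 1.04 and 0.92. It was -1.57 to -0.72 with 1 library left out, and no call was left in any of these. Its call also ended with no filter on low counts (-1.08, adjusted p = 0.176, edgeR) and on the mtDNA-encoded entries alone (-1.08), but held with DESeq2 and with all mtDNA-encoded reads as the library size. Per mt-tRNA read, mt:lrRNA (0.56) became -0.34 without mt:tRNA-Met and 0.11 to 0.91 with 1 library left out, and mt:srRNA (-0.22) became -0.61 to 0.21, positive without control replicate 2 (0.21) or DmAngel KO replicate 1 (0.09). The ratio of the rRNAs kept its direction and stayed short of the threshold in all 8 alternatives. Leaving out 1 library per mt-mRNA read gave -0.69 to 0.84 for mt:tRNA-Val, -0.040 to 0.87 for mt:tRNA-Leu and -0.10 to 0.11 for mt:ND1. Per mt-mRNA read, 30 of 5293 entries were called higher and 4520 lower, against 118 and 195 with entries outside mtDNA as the scale, and 0 and 31 of 27974 without a filter; leaving out 1 library gave 1951 to 3564 lower. Per mt-tRNA read the calls were 65 and 2010, and per mt:srRNA read 14 and 211.

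The replicate numbers are shared by both genotypes, but the labels do not say that they pair the libraries, and 2 pairs cannot settle it. Deviations of same-numbered libraries correlated at 0.83 over the 35 mtDNA-encoded entries and at 0.13 over all tested entries. With a replicate block, which leaves 1 residual degree of freedom, mt:srRNA per mt-mRNA read was -1.14 (adjusted p = 1.55e-05, edgeR, against 0.0201 without the block). In that fit mt:lrRNA was -0.40 (adjusted p = 0.194, edgeR). Per mt-tRNA read, mt:srRNA and mt:lrRNA were -0.21 and 0.53 with the block. The ratio of the rRNAs was 0.74 with the block (adjusted p = 0.113, edgeR), and the block changed no call of either rRNA. It added the calls of mt:tRNA-Val per mt-tRNA read (1.03) and of all 3 neighbours per mt:srRNA read, and the calls over all entries went to 34 higher and 4647 lower per mt-mRNA read and to 70 and 1213 per mt:srRNA read.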
